A study of Mus musculus with 6 samples.

Results

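The transcripts of 10 genes of muscle energy supply were followed in cells labelled as C2C12. This line of mouse myoblasts is used as a model of myotube formation. The rule that chose the genes is a list by name and uses no measured value. The genes were listed with earlier results of these data known. They are 6 muscle isozymes or muscle proteins, *Ckm*, *Eno3*, *Pgam2*, *Pygm*, *Pfkm* and *Mb*, and 4 isozymes made in many tissues, *Ckb*, *Eno1*, *Pgam1* and *Pygb*, out of 23231 genes with counts in at least 1 library. All 10 were listed in the count tables and all 10 passed the low-count filter of edgeR, which left 14378 genes tested.

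There were 3 libraries of dCas9-KRAB cells and 3 libraries of dCas9-KRAB-En5 cells. By the labels and the study, both groups were C2C12 cells given lentivirus (multiplicity of infection 100) to express dCas9-KRAB. That is a nuclease-dead Cas9 joined to a repressor domain. Both groups were selected with 2 μg/ml puromycin, moved to 2% horse serum and harvested on day 5. The dCas9-KRAB-En5 cells also carried 2 sgRNAs against Myog-En5, an enhancer of *Myog* at chr1:134283085-134283603 (GRCm38), whereas the dCas9-KRAB cells, the control, carried no sgRNA against an enhancer. Each group is a transduced and selected population of 1 cell line, and the labels do not say whether the replicates were separate transductions, so the p-values measure the spread between these libraries only. The enhancer lies 6386 bases before the start of *Myog*, which encodes the transcription factor myogenin. *Myog* itself, the gene whose enhancer was targeted, had a TPM (counts per gene length, scaled to the same total in each library) of 1065, 1224 and 1118 in dCas9-KRAB replicates 1, 2 and 3 and of 0.379, 0 and 0 in dCas9-KRAB-En5 replicates 1, 2 and 3.

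Muscle fibres draw ATP from phosphocreatine through creatine kinase, from stored glycogen through glycogen phosphorylase, and from glucose through glycolysis, while myoglobin binds oxygen. For several of these steps the genome holds a gene that is used mainly in muscle and a counterpart used in many other tissues, and the muscle isozyme takes over as myoblasts become myotubes. Both members of a pair catalyse the same reaction. The share of the muscle isozyme within a pair does not depend on how the library was scaled. In bulk RNA the share also reflects which cells are present, since cells of other types can hold the counterpart. The part of cell makeup in the shares was not tested.

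The sequences that set the comparison are the target sites of both sgRNAs, shown because they are the only designed difference between the groups. Lower case marks the part matched by the guide and capitals the PAM, the short motif that Cas9 needs beside its target. The site of sgRNA1 lies at chr1:134283252-134283274 on the plus strand and that of sgRNA2 at chr1:134283558-134283580 on the minus strand, in GRCm38.
En5-sgRNA1: gaaggggttactgtcggcagAGG
En5-sgRNA2: gaccggaagattgaaccactGGG

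The isozymes of a pair could be told apart by sequence. The coding sequences of a pair, from GENCODE transcripts, were of nearly the same length, with 381 codons in both *Ckm* and *Ckb* and 253 and 254 codons in *Pgam2* and *Pgam1*. Over the aligned coding sequence the bases were 76.1% identical for *Ckm* and *Ckb*, 76.7% for *Eno3* and *Eno1*, 74.4% for *Pgam2* and *Pgam1* and 77.3% for *Pygm* and *Pygb*. The opening 60 coding bases of the creatine kinases are shown to give the density of differences that a read meets, with capitals in *Ckb* for bases that differ from *Ckm* at the same position.
Ckm: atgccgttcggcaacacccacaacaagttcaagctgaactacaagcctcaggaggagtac
Ckb: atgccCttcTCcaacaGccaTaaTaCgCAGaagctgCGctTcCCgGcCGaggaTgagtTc

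In this stretch *Ckb* differed from *Ckm* at 20 positions. Runs of 50 bases taken from the transcripts of one member never occurred in the transcripts of its partner for the creatine kinases, enolases and phosphoglycerate mutases, and *Pygm* and *Pygb* had 13 such runs in common, 0.40% of those of *Pygm*. A read of the muscle gene therefore seldom matched its partner over 50 bases. The copies of the ubiquitous genes elsewhere in the genome were another matter. *Pgam1-ps2*, a processed pseudogene of *Pgam1* on chromosome 7, was 100.0% identical to the *Pgam1* coding sequence over 762 bases, and *Eno1b*, an intronless copy of *Eno1*, was 99.4% identical over 1302 bases. The opening 60 coding bases of *Pgam1*, *Pgam2* and the pseudogene are shown because the pseudogene has no difference there and *Pgam2* has 20, with capitals for bases that differ from *Pgam1*.
Pgam1: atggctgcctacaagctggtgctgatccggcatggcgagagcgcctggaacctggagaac
Pgam2: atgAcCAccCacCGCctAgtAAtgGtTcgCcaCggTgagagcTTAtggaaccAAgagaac
Pgam1-ps2: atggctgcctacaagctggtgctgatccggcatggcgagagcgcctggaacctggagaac

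Of the runs of 50 bases of *Pgam1*, 36.16% also occurred in *Pgam1-ps2*, and of those of *Eno1*, 25.32% also occurred in *Eno1b*. How the counting split such reads is not given in the sources used here, so the levels of *Pgam1* and *Eno1* are uncertain. The TPM of *Eno1b* was 1.44 to 1.6 times that of *Eno1* across the 6 libraries and that of *Pgam1-ps2* was 0.279 to 0.346 times that of *Pgam1*, so in both groups the copies kept nearly the same ratio to the gene.

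The labelled cell type was compared with its markers. Over 10 myotube markers the summed TPM lay between 16091 and 18381 in dCas9-KRAB libraries and between 6.26 and 16.1 in dCas9-KRAB-En5 libraries. Over 10 myoblast markers it lay between 549 and 2068 in dCas9-KRAB libraries and between 15.2 and 44.2 in dCas9-KRAB-En5 libraries. *Myod1*, a factor that defines the myoblast lineage, was at 33.8, 111 and 79.2 TPM in dCas9-KRAB cells and at 0.0761, 0.0317 and 0 TPM in dCas9-KRAB-En5 cells. *Des*, which encodes the intermediate filament desmin, was at 383, 1577 and 1071 TPM in dCas9-KRAB cells and at 7.87, 5.31 and 13.9 TPM in dCas9-KRAB-En5 cells, and *Itga7*, an integrin subunit of muscle, was at 93.3, 271 and 195 TPM and then at 9.75, 9.01 and 27.7 TPM. *Pax7*, a marker of muscle stem cells, was at or near 0 in all 6 libraries of both groups. *Myod1* and *Myog* were thus near or at 0 in every dCas9-KRAB-En5 library while *Des* and *Itga7* were lower but present, and no comparison without such libraries can be made.

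Of 20 macrophage markers, between 10 and 12 reached a TPM of 10 in each of the 6 libraries. Their summed TPM lay between 3370 and 3992 in dCas9-KRAB libraries and between 4778 and 7972 in dCas9-KRAB-En5 libraries. The marker with the highest mean, *Tyrobp*, an adaptor protein of myeloid cells, ranged from 1048 to 1727 TPM in dCas9-KRAB libraries and from 1221 to 2547 TPM in dCas9-KRAB-En5 libraries, while *Mrc1* and *Cd163* were not listed and *C1qa* was under 1 TPM in all of them. The labels name a myoblast line, so the levels of the macrophage markers that were present do not match the label. Where these transcripts came from was not tested. Over 10 fibroblast markers the summed TPM lay between 70.4 and 206 in dCas9-KRAB libraries and between 20.9 and 39.3 in dCas9-KRAB-En5 libraries. Single macrophage markers differed in direction. *Adgre1* was called higher (log2 fold change 2.68 ± 0.54, SE, adjusted p = 0.00706, edgeR), while *Fcgr1* (-1.84 ± 0.45, adjusted p = 0.0178) and *Mpeg1* (-1.10 ± 0.47, adjusted p = 0.124) were not called but had every dCas9-KRAB-En5 TPM below every control TPM. The summed levels of the myotube, myoblast and fibroblast lists were lower in each dCas9-KRAB-En5 library than in each control library, as were 5 of the muscle genes below, and that of the macrophage list was higher. The part of a change in cell makeup in the results was not tested. In bulk RNA, fewer cells of a type and less RNA per cell of that type cannot be told apart. Library totals lay between 31831093 and 73988425 counts, and each dCas9-KRAB-En5 library was shallower than each control library. dCas9-KRAB-En5 replicate 3 stood apart, with 13991 genes listed against 17084 to 19395 elsewhere and 25.8% of its counts in ribosomal protein genes against 10.8% to 19.4% elsewhere, and where leaving it out moved a called value by over 1.5 times or a count of calls by as much, both values are given.

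**Figure D1:**
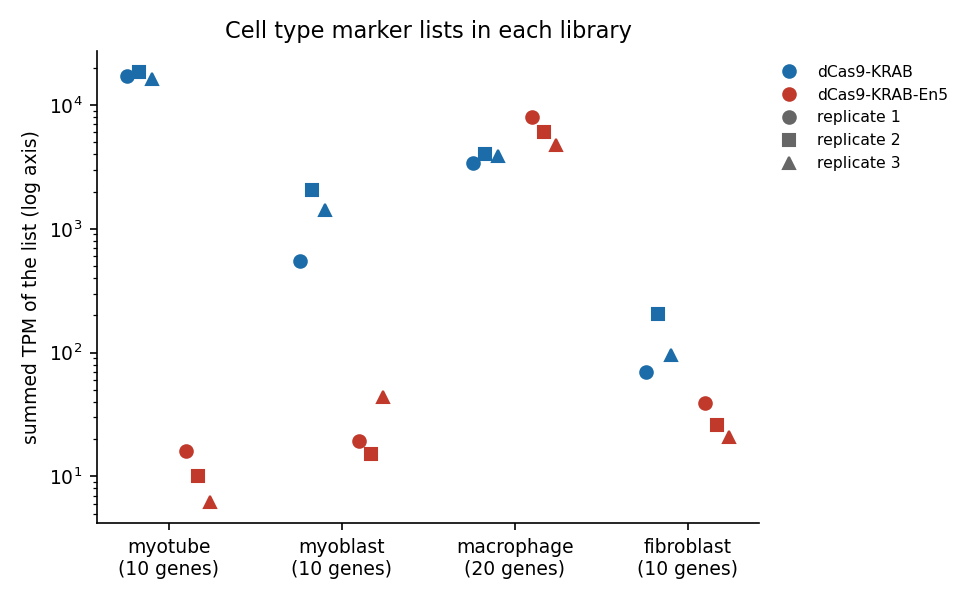
Summed TPM of 4 cell type marker lists (log axis) in each of the 6 libraries, with blue for dCas9-KRAB, red for dCas9-KRAB-En5 and the symbol giving the replicate. The myotube list falls from at least 16091 to at most 16.1, and the macrophage list lies between 3370 and 7972 in all of them.

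Of the 6 muscle genes, 5 were called lower in dCas9-KRAB-En5 cells, *Mb*, *Ckm*, *Pygm*, *Pgam2* and *Eno3*, and *Pfkm* was not called. Of the 4 ubiquitous counterparts, 0 were called in either direction. A call required an adjusted p of at most 0.01 in edgeR's quasi-likelihood test together with a log2 fold change of 1 or more in size, and over all 14378 genes tested 4.67% were called lower and 1.52% higher. DESeq2 and a fit blocked on the replicate number also called 5 of the 6 muscle genes lower and 0 of the 4 counterparts, and 0 of the 4 had an unadjusted p under 0.05 in edgeR. The same 5 muscle genes had every dCas9-KRAB-En5 TPM below every dCas9-KRAB TPM, which held for 19.7% of all genes tested, and none of the 4 counterparts had groups that did not overlap. The median log2 fold change was -6.74 over the 6 muscle genes and -0.03 over the 4 counterparts, beside 0.08 over all genes tested. The muscle median lies midway between *Pgam2* (-3.94) and *Pygm* (-9.54), and the value of *Pygm* rests on 2 counts in dCas9-KRAB-En5 cells.

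**Figure D2:**
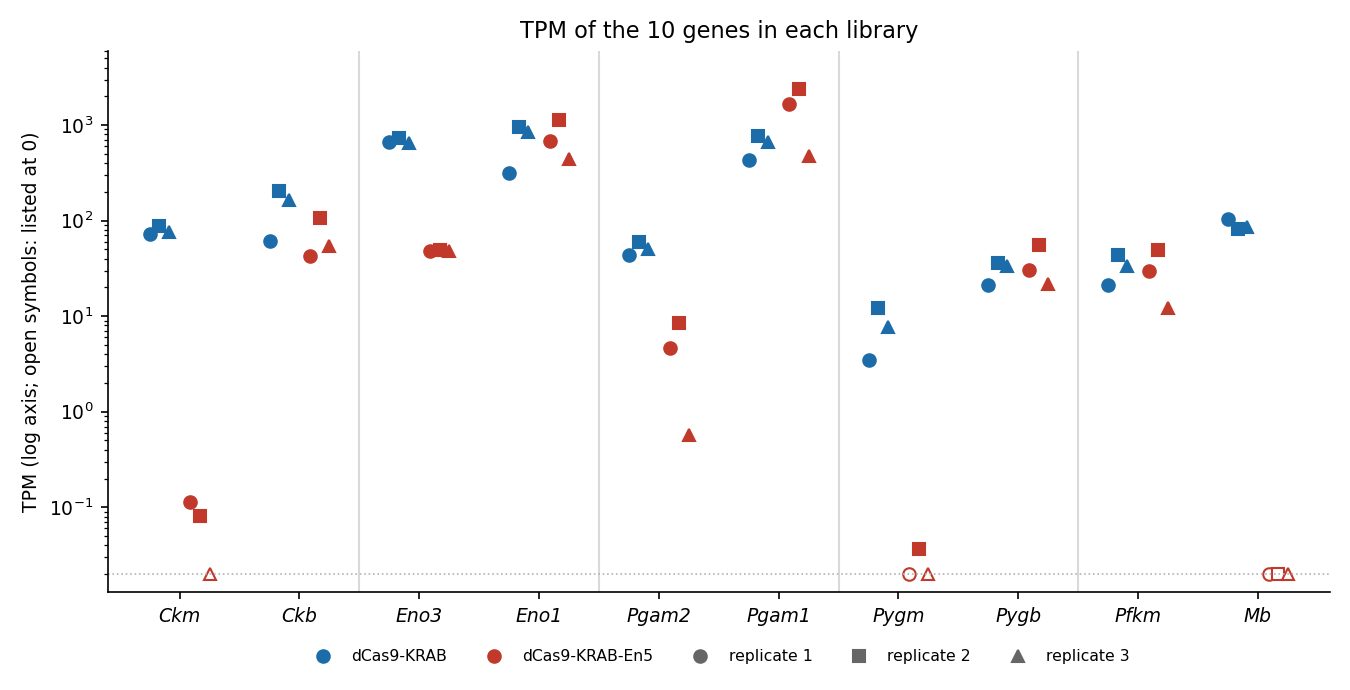
TPM of the 10 genes (log axis) in each of the 6 libraries, with pairs of muscle and ubiquitous isozyme side by side and open symbols on the dotted line for a gene listed at 0. Mb is listed at 0 in all 3 dCas9-KRAB-En5 libraries, the red points of Ckm, Eno3, Pgam2 and Pygm lie below their blue points, and those of Ckb, Eno1, Pgam1, Pygb and Pfkm overlap them.

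Myoglobin and the muscle creatine kinase were nearly absent from dCas9-KRAB-En5 cells. *Mb* (ENSMUSG00000018893, chr15:77015487-77050670, minus strand, GRCm38) encodes myoglobin, the oxygen-binding protein of heart and slow muscle. Its TPM was 105, 81.8 and 85.7 in dCas9-KRAB replicates 1, 2 and 3, from 4247, 4567 and 5729 counts, and no dCas9-KRAB-En5 library held a count. Against a floor of 3 counts per library this was at least 959.8-fold lower (adjusted p = 1.82e-05, edgeR), a bound that covers counting error only. Annotated genes on the opposite strand, *Gm49540* and *Apol6*, overlap *Mb*, and *Gm49540* holds 23.8% of its runs of 50 bases. Whether the counting used strand is not given in the sources used here.

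*Ckm* (ENSMUSG00000030399, chr7:19404776-19422841, plus strand) encodes the muscle creatine kinase, which passes phosphate between creatine phosphate and ATP beside the myofibrils. It had a TPM of 71.8, 88.3 and 75.8 in the dCas9-KRAB libraries and of 0.113, 0.0810 and 0 in the dCas9-KRAB-En5 libraries, where the counts were 7, 4 and 0. The dCas9-KRAB values lay close together and none of the dCas9-KRAB-En5 values came near them. The log2 fold change was -10.54 ± 0.79 (SE, adjusted p = 1.82e-05, edgeR), with a 95% interval from -12.27 to -8.81. It was -11.21 without dCas9-KRAB-En5 replicate 1, which held 7 of the 11 counts, and the call was kept. *A930016O22Rik*, on the opposite strand, overlaps *Ckm* and holds 10.85% of its runs of 50 bases. Its counterpart *Ckb* (ENSMUSG00000001270, chr12:111669361-111672338, minus strand), the creatine kinase of brain and many further tissues, had a TPM of 61.8, 202 and 165 in dCas9-KRAB cells and of 42.9, 106 and 54.7 in dCas9-KRAB-En5 cells. The values overlapped, since dCas9-KRAB replicate 1 lay below dCas9-KRAB-En5 replicate 2. Another gene, *Gm12892*, holds 9.89% of the runs of 50 bases of *Ckb*. The log2 fold change of *Ckb* was -1.17 ± 0.56 (SE, adjusted p = 0.165, edgeR), and its 95% interval, from -2.39 to 0.04, included both no change and a fall of over 5-fold. Without dCas9-KRAB-En5 replicate 3 it was -1.59 ± 0.52 (SE, adjusted p = 0.032, edgeR), which was not called either.

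The muscle enolase fell less far and had nearly the same TPM in each dCas9-KRAB-En5 library. *Eno3* (ENSMUSG00000060600, chr11:70657202-70662513, plus strand) encodes beta-enolase, the enzyme that makes phosphoenolpyruvate in muscle glycolysis. Its TPM was 659.7, 738 and 645 in dCas9-KRAB replicates 1, 2 and 3 and 48.0, 48.8 and 48.1 in dCas9-KRAB-En5 replicates 1, 2 and 3. The level in dCas9-KRAB-En5 cells was 48.3 ± 0.420 (SD, n = 3) against 681 ± 49.7 (SD, n = 3) in the control, 14.2-fold lower in the fit, and each dCas9-KRAB-En5 library held at least 1438 counts. The closeness of the dCas9-KRAB-En5 values holds for TPM only. Their counts were 1768, 1438 and 1915 and their TMM factors in the fit 1.16, 1.22 and 0.730, so the normalised counts spread more. The log2 fold change was -3.83 ± 0.55 (SE, adjusted p = 0.000991, edgeR), and without dCas9-KRAB replicate 1 the call was lost at an adjusted p of 0.0133 with the log2 fold change at -3.85. Without dCas9-KRAB-En5 replicate 3 it was -4.43 ± 0.38 (SE, adjusted p = 3.45e-05, edgeR), 21.6-fold lower.

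*Eno1* (ENSMUSG00000063524, chr4:150236721-150248879, plus strand), alpha-enolase of most tissues, had a TPM of 319, 958 and 842 in dCas9-KRAB libraries and of 678, 1136 and 439.9 in dCas9-KRAB-En5 libraries. The ranges lay across each other, and the log2 fold change of -0.11 ± 0.53 (SE, adjusted p = 0.904, edgeR) had a 95% interval from -1.26 to 1.04. Its copy *Eno1b* had a log2 fold change of -0.05 ± 0.52 (SE, adjusted p = 0.959, edgeR).

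The muscle phosphoglycerate mutase fell while its counterpart had its highest values in dCas9-KRAB-En5 cells. *Pgam2* (ENSMUSG00000020475, chr11:5801640-5803733, minus strand) encodes the muscle form of the enzyme that moves the phosphate of phosphoglycerate. It had a TPM of 44.0, 59.1 and 50.0 in dCas9-KRAB libraries and of 4.61, 8.57 and 0.572 in dCas9-KRAB-En5 libraries. All 3 dCas9-KRAB-En5 values were lower, but they spread over more than 10-fold, with replicate 3 at 11 counts against 82 and 122. The log2 fold change was -3.94 ± 0.64 (SE, adjusted p = 0.00219, edgeR), 15.4-fold lower. The call was lost without dCas9-KRAB replicate 1 (log2 fold change -4.08, adjusted p = 0.0178, edgeR) and without dCas9-KRAB replicate 2 (-3.93, adjusted p = 0.0104, edgeR).

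*Pgam1* (ENSMUSG00000011752, chr19:41911923-41918660, plus strand), the phosphoglycerate mutase of most tissues, had a TPM of 428, 775 and 659.7 in dCas9-KRAB libraries and of 1661, 2399.9 and 471 in dCas9-KRAB-En5 libraries. Replicates 1 and 2 of dCas9-KRAB-En5 lay above every control library and replicate 3 lay within the control range. The log2 fold change was 0.93 ± 0.49 (SE, adjusted p = 0.214, edgeR), with a 95% interval from -0.15 to 2.01. Without dCas9-KRAB-En5 replicate 3 it was 1.08 ± 0.33 (SE, adjusted p = 0.0235, edgeR), which also missed the cutoff of 0.01. The pseudogene *Pgam1-ps2* had a log2 fold change of 0.84 ± 0.47 (SE, adjusted p = 0.245, edgeR).

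The muscle glycogen phosphorylase was the muscle gene of the set with the lowest TPM in dCas9-KRAB cells and was nearly absent from dCas9-KRAB-En5 cells. *Pygm* (ENSMUSG00000032648, chr19:6384399-6398459, plus strand) encodes the enzyme that releases glucose phosphate from glycogen in muscle. Its TPM was 3.46, 12.1 and 7.74 in dCas9-KRAB libraries, from 302, 1455 and 1115 counts, and dCas9-KRAB-En5 replicate 2 held 2 counts where the other two held none. The normalised count rate was 909.6 times lower than in dCas9-KRAB cells, with an exact 95% interval of 251.6 to 7514 that covers counting error only, and edgeR gave an adjusted p of 0.000114. The value rests on those 2 counts. The fitted log2 fold change of -9.54 went to -12.53 without dCas9-KRAB-En5 replicate 2, when the group held no counts at all and the fit depends on the prior count, and to -8.89 without dCas9-KRAB-En5 replicate 1, with the call kept in both (adjusted p at most 8.4e-05, edgeR). Its counterpart *Pygb* (ENSMUSG00000033059, chr2:150786735-150831758, plus strand), the brain form found in many tissues, had a TPM of 21.0, 35.7 and 33.9 in dCas9-KRAB libraries and of 30.7, 55.7 and 21.6 in dCas9-KRAB-En5 libraries. Their ranges lay across each other, and the log2 fold change was 0.04 ± 0.43 (SE, adjusted p = 0.957, edgeR) with a 95% interval from -0.90 to 0.99. It was -0.13 ± 0.38 without dCas9-KRAB-En5 replicate 3 (SE, adjusted p = 0.806, edgeR). The sign also turned without dCas9-KRAB replicate 1 (-0.188) and without dCas9-KRAB-En5 replicate 2 (-0.0629), so the direction of *Pygb* was not settled.

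*Pfkm* was the 1 muscle gene that was not called. It lies at chr15:98092589-98132451 on the plus strand (ENSMUSG00000033065) and encodes the muscle subunit of phosphofructokinase, the committing step of glycolysis. It had a TPM of 21.4, 43.5 and 33.3 in dCas9-KRAB libraries and of 29.6, 49.7 and 12.3 in dCas9-KRAB-En5 libraries, which held both the highest and the lowest value. *Gm26513* on the same strand overlaps *Pfkm* and holds 8.83% of its runs of 50 bases, and *Senp1* overlaps it on the opposite strand. The log2 fold change was -0.40 ± 0.43 (SE, adjusted p = 0.552, edgeR), with a 95% interval from -1.35 to 0.54. The interval of *Eno3*, the called muscle gene with the smallest change, was -5.04 to -2.62 and did not overlap it, and the difference between these genes was not tested.

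**Figure D3:**
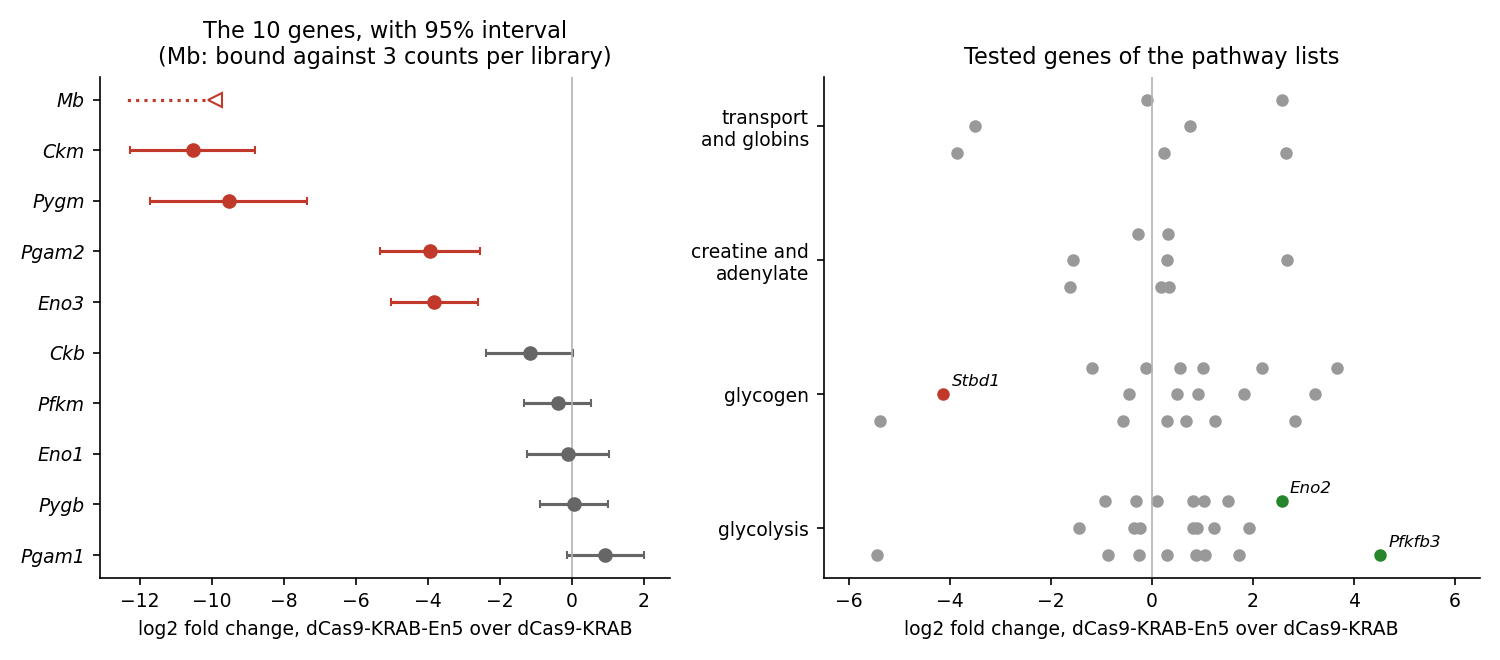
Log2 fold change of dCas9-KRAB-En5 over dCas9-KRAB from edgeR, on the left for the 10 genes with 95% intervals (red: called lower; the open triangle for Mb is a bound) and on the right for each tested gene of 4 pathway lists. The 5 called muscle genes lie at or below -3.83, the other 5 lie between -1.17 and 0.93, and 3 pathway genes were called.

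The share of the muscle isozyme was lower in dCas9-KRAB-En5 cells in all 4 pairs. *Ckm* made up 53.8%, 30.4% and 31.4% of the creatine kinase TPM of the pair in dCas9-KRAB libraries and 0.264%, 0.0766% and 0% in dCas9-KRAB-En5 libraries. *Eno3* made up 67.4%, 43.5% and 43.4% of its pair in dCas9-KRAB libraries and 6.61%, 4.12% and 9.86% in dCas9-KRAB-En5 libraries. In every control library the muscle form was thus a large part of both enzymes, and the remaining share in dCas9-KRAB-En5 cells was larger for the enolase than for the creatine kinase in each library.

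*Pgam2* was a minor form in both groups, with 9.31%, 7.09% and 7.05% of its pair in dCas9-KRAB libraries and 0.277%, 0.356% and 0.121% in dCas9-KRAB-En5 libraries. *Pygm* made up 14.2%, 25.3% and 18.6% of its pair in dCas9-KRAB libraries and 0%, 0.0658% and 0% in dCas9-KRAB-En5 libraries. The control RNA on day 5 thus held more *Pgam1* and *Pygb* than the muscle forms in every library. With the TPM of the copies added to the ubiquitous isozyme the share of *Eno3* was 45.0%, 24.0% and 23.2% in dCas9-KRAB libraries and 2.66%, 1.68% and 4.04% in dCas9-KRAB-En5 libraries, so its size depended on the copies and its direction did not.

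**Figure D4:**
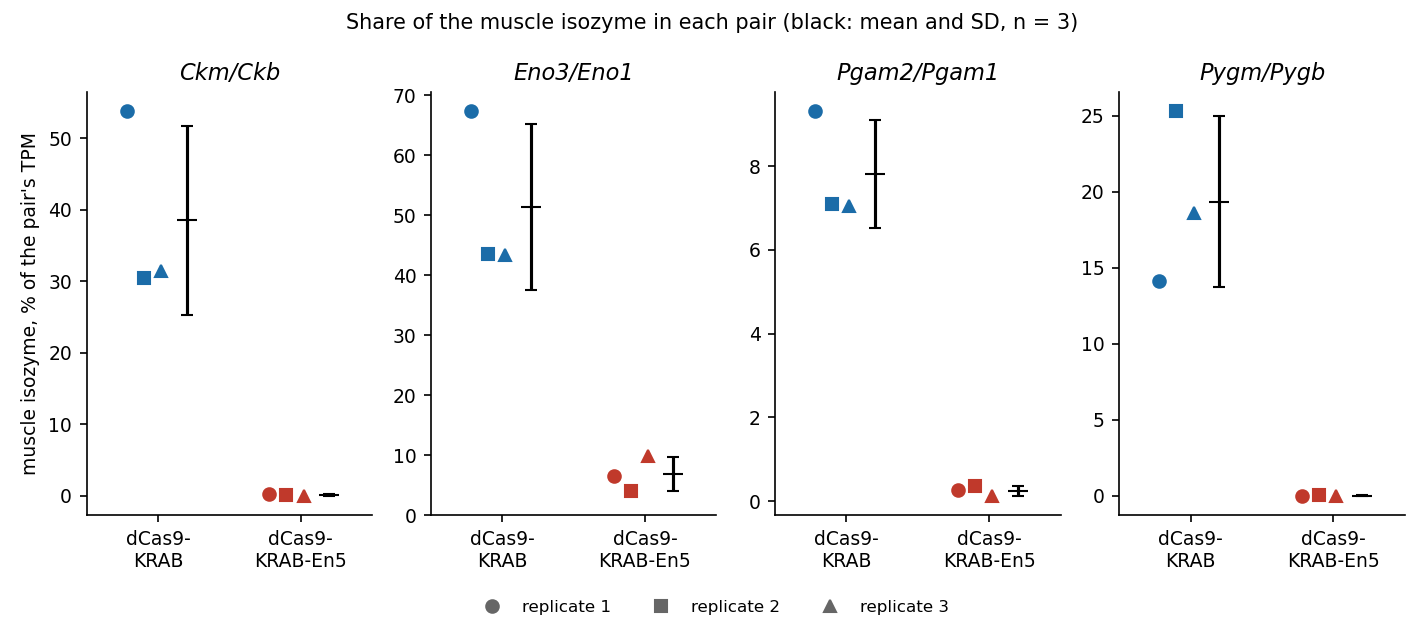
Share of the muscle isozyme in the summed TPM of each of the 4 pairs, in percent, in 3 dCas9-KRAB (blue) and 3 dCas9-KRAB-En5 (red) libraries, with the mean and SD in black and an axis of its own for each pair. The groups do not overlap in any pair, and the highest dCas9-KRAB-En5 share is 9.86% for Eno3.

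The difference in the log2 ratio of muscle to ubiquitous isozyme, with 0.1 added to each TPM, was -7.95 for *Ckm* and *Ckb*, -6.15 for *Pygm* and *Pygb*, -5.11 for *Pgam2* and *Pgam1* and -3.94 for *Eno3* and *Eno1*. In each pair all 3 dCas9-KRAB-En5 libraries lay below all 3 control libraries (exact permutation test, two-sided, p = 0.1, adjusted over the 4 pairs 0.1). A p of 0.1 is the smallest that the 20 splits of 3 against 3 libraries allow, so this test could not pass 0.05. The size for *Ckm* and *Pygm*, which were at or near 0 TPM in dCas9-KRAB-En5 cells, depends on the added value.

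The summed TPM of a pair did not follow 1 direction. For the creatine kinases it was 134, 290.5 and 241 in dCas9-KRAB libraries and 43.0, 106 and 54.7 in dCas9-KRAB-En5 libraries, with no overlap (exact permutation test, two-sided, p = 0.1, adjusted over the 4 pairs 0.4). For the enolases it was 979, 1696 and 1487 against 726, 1185 and 488, which overlapped (exact permutation test, p = 0.2). For the phosphoglycerate mutases it was 472, 834 and 709.7 against 1665, 2408 and 471, and for the phosphorylases 24.4, 47.8 and 41.6 against 30.7, 55.7 and 21.6, with exact permutation p of 0.4 and 0.9. With 3 libraries against 3 this test could not pass 0.05 for any pair, and the creatine kinase sums, with a log2 difference of -1.74, were the ones that did not overlap.

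The order of the genes by TPM differed between the groups. In dCas9-KRAB cells *Eno1* (706 ± 340 TPM, SD, n = 3), *Eno3* (681 ± 49.7) and *Pgam1* (621 ± 176) came first with overlapping ranges. *Ckb* (143 ± 72.8), *Mb* (90.8 ± 12.4) and *Ckm* (78.6 ± 8.59) followed, again overlapping from each to the next, then *Pgam2* (51.0 ± 7.64), then *Pfkm* (32.8 ± 11.1) and *Pygb* (30.2 ± 8.03), which overlapped, and last *Pygm* (7.76 ± 4.31). In dCas9-KRAB-En5 cells *Pgam1* (1510.5 ± 973) and *Eno1* (751 ± 354) came first with overlapping ranges, and *Pgam1* was above *Eno1* in all 3 libraries. With the TPM of *Pgam1-ps2* and *Eno1b* added, this held in replicates 1 and 2 and turned in replicate 3, with 602 TPM for *Pgam1* and 1142 TPM for *Eno1*. *Ckb* (67.8 ± 33.4), *Eno3* (48.3 ± 0.420), *Pygb* (36.0 ± 17.7) and *Pfkm* (30.5 ± 18.7) each overlapped the next, and *Pgam2* (4.58 ± 3.997) lay below them. *Ckm* and *Pygm* had at most 0.113 and 0.0367 TPM in any of these libraries and *Mb* was listed at 0.

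Each of these families has further members that are not part of the pairs. *Eno2*, the enolase best known from neurons, was called higher in dCas9-KRAB-En5 cells, with a TPM of 8.50, 17.8 and 14.7 in dCas9-KRAB libraries and of 121, 171 and 26.8 in dCas9-KRAB-En5 libraries (log2 fold change 2.58 ± 0.52, SE, adjusted p = 0.00737, edgeR). Of the summed TPM of *Eno3*, *Eno1* and *Eno2*, *Eno2* made up 0.861% to 1.04% in dCas9-KRAB libraries and 14.3%, 12.6% and 5.21% in dCas9-KRAB-En5 libraries. Of the summed TPM of the phosphofructokinase subunits, *Pfkm* made up 31.6%, 19.7% and 18.8% in dCas9-KRAB libraries and 12.3%, 14.4% and 17.3% in dCas9-KRAB-En5 libraries, so its groups did not overlap. *Pfkl*, the liver subunit, made up 45.6%, 67.9% and 68.3% and then 45.4%, 43.6% and 66.4%, and *Pfkp*, the platelet subunit, 22.7%, 12.4% and 12.9% and then 42.3%, 42.0% and 16.4%. These shares were chosen after the values had been seen, and no test was run on them. *Pfkp* itself had a log2 fold change of 1.52 ± 0.59 (SE, adjusted p = 0.0978, edgeR) and *Pfkl* of -0.22 ± 0.56 (SE, adjusted p = 0.81, edgeR).

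The other genes of these pathways were taken from lists and read against the share of all genes called. Of 71 genes on lists for glycolysis, glycogen, creatine and adenylate, and transport and globins, 62 were listed and 55 tested, of which 1 was called lower and 2 higher in edgeR, beside 4.67% and 1.52% of all genes. Over the 55 the median log2 fold change was 0.35. In the fit blocked on the replicate number 3 were called lower and 4 higher, beside 6.79% and 3.94% of all genes. DESeq2 called 5 lower and 8 higher, beside 8.66% and 5.88% of all genes. Without dCas9-KRAB-En5 replicate 3, 5 were called lower and 12 higher, beside 14.0% and 11.7% of all genes. An unadjusted p under 0.05 in edgeR, given for each list below, was found for 16.3% of all genes in the lower and 16.6% in the higher direction. The counts of single lists below are a few genes each and are read against these shares.

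Among the glycolysis genes 0 of the 22 tested were called lower and 2 higher, *Eno2* and *Pfkfb3*, with 1 lower and 5 higher at an unadjusted p under 0.05, and DESeq2 called 1 lower and 2 higher. *Pfkfb3*, which makes the activator of phosphofructokinase, had a TPM of 1.70, 3.06 and 2.40 in dCas9-KRAB libraries and of 92.7, 131 and 6.36 in dCas9-KRAB-En5 libraries (log2 fold change 4.52 ± 0.74, SE, adjusted p = 0.00243, edgeR). All 3 dCas9-KRAB-En5 values were higher, with replicate 3 far below the other two. Both calls were lost without dCas9-KRAB replicate 1, 2 or 3, when 0 were called higher, and 6 were called higher without dCas9-KRAB-En5 replicate 3, *Hk1*, *Hk2*, *Pfkp*, *Pfkfb3*, *Pgk1* and *Eno2*. The gene that DESeq2 called lower was *Ldhb*, lactate dehydrogenase B. It had 2.65, 1.84 and 2.30 TPM in dCas9-KRAB libraries and 0.180, 0 and 0 TPM in dCas9-KRAB-En5 libraries. In edgeR it just missed the cutoff (log2 fold change -5.44, adjusted p = 0.0103). The replicate block and the fit without dCas9-KRAB-En5 replicate 3 also called it lower.

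Further glycolysis enzymes, picked by role, were not called. *Aldoa*, aldolase A, which is the form of muscle and most other tissues, had a log2 fold change of 0.30 ± 0.53 (SE) and *Pkm*, pyruvate kinase, of 0.11 ± 0.54. *Gapdh*, the dehydrogenase of glyceraldehyde phosphate, had -0.35 ± 0.48, *Tpi1*, triose phosphate isomerase, -0.92 ± 0.47, *Ldha*, lactate dehydrogenase A, -0.26 ± 0.48 and *Gpi1*, glucose phosphate isomerase, 0.83 ± 0.49, with adjusted p from 0.193 to 0.907 in edgeR. Every dCas9-KRAB-En5 TPM lay below every control TPM for *Tpi1*, as for 19.7% of all genes tested. For *Gpi1* every dCas9-KRAB-En5 TPM lay above every control TPM, and the share of all genes with that pattern was not counted. *Pgk1*, phosphoglycerate kinase, had 1.04 ± 0.53 (adjusted p = 0.197, edgeR), with a TPM of 857, 865 and 1034 in dCas9-KRAB libraries and of 3266, 3722 and 569 in dCas9-KRAB-En5 libraries. *Hk2*, the hexokinase of muscle and fat, had 1.94 ± 0.81 (adjusted p = 0.118, edgeR). Its TPM was 1.93, 9.59 and 3.97 in dCas9-KRAB libraries and 27.6, 53.3 and 1.40 in dCas9-KRAB-En5 libraries. As for *Pgam1*, dCas9-KRAB-En5 replicates 1 and 2 lay above every control library of *Pgk1* and of *Hk2*, while replicate 3 lay below them.

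Of the 18 glycogen genes tested, 1 was called lower and 0 higher, with 2 lower and 4 higher at an unadjusted p under 0.05 and 2 lower and 3 higher in DESeq2. The gene called lower was *Stbd1*, which anchors glycogen to membranes, with a TPM of 88.8, 33.8 and 41.0 in dCas9-KRAB libraries and of 6.12, 5.28 and 1.02 in dCas9-KRAB-En5 libraries (log2 fold change -4.13 ± 0.61, SE, adjusted p = 0.00118, edgeR). The call was lost without dCas9-KRAB replicate 1, when 0 were called lower, and 3 were called higher without dCas9-KRAB-En5 replicate 3. *Pygl*, the liver phosphorylase and the third member of the *Pygm* and *Pygb* family, had at most 0.534 TPM in any library (log2 fold change 2.83 ± 1.54, SE, adjusted p = 0.223, edgeR).

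Of the 8 creatine and adenylate genes tested, 0 were called in edgeR, with 2 lower and 1 higher at an unadjusted p under 0.05, and DESeq2 called 0 lower and 1 higher. *Ak1*, the adenylate kinase of muscle, had a TPM of 69.6, 98.9 and 98.4 in dCas9-KRAB libraries and of 22.6, 18.0 and 36.6 in dCas9-KRAB-En5 libraries, with no overlap between the groups (log2 fold change -1.62 ± 0.60, SE, adjusted p = 0.0847, edgeR). Without dCas9-KRAB-En5 replicate 3, *Ak1* and *Gamt*, an enzyme of creatine synthesis, were called lower and *Ak4*, a mitochondrial adenylate kinase, higher. *Ckmt2*, the mitochondrial creatine kinase of muscle, was not listed in any library.

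Of the 7 transport and globin genes tested, 0 were called in edgeR, with 2 lower and 2 higher at an unadjusted p under 0.05, and DESeq2 called 2 lower and 2 higher. *Slc2a4*, the insulin-responsive glucose transporter of muscle, was low throughout, with 0.540, 1.08 and 0.725 TPM in dCas9-KRAB libraries and 0.0543, 0.237 and 0 TPM in dCas9-KRAB-En5 libraries (log2 fold change -3.49 ± 1.06, SE, adjusted p = 0.0433, edgeR). With the replicate block *Fabp3*, a fatty acid binding protein of muscle, was called lower and *Slc2a1*, the glucose transporter of most tissues, higher. Leaving out dCas9-KRAB-En5 replicate 3, 1 was called lower and 2 higher.

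The genes whose pattern over the 6 libraries was most like the mean of the 6 muscle genes were *Alkbh3*, *Ifi47* and *Iffo1*, with Pearson r of 0.998, 0.998 and 0.997 among 7539 genes of at least 10 CPM on average. *Iffo1* had a TPM of 32.1, 68.3 and 51.6 in dCas9-KRAB libraries and of 4.81, 6.92 and 1.40 in dCas9-KRAB-En5 libraries. *Alkbh3*, with the highest r, changed less, from 10.8, 16.5 and 13.7 TPM to 5.86, 7.82 and 2.30 TPM. The r follows the shape of a pattern and not the size of a change. Most like the mean of the 4 counterparts were *Vac14*, *Ldb1* and *Fgr*, with r of 0.982, 0.982 and 0.981. The members themselves ranged from 0.678 for *Pfkm* to 0.992 for *Pygm* against the muscle mean, and from 0.379 for *Pgam1* to 0.977 for *Eno1* against that of the counterparts. These r are descriptions over 6 libraries that share their group and depth.

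The promoter windows were compared because 5 of the muscle genes fell together. RefSeq gave 17 windows of 300 bases, from 250 before a transcript start to 50 after it (GRCm38.p6), for the 10 genes. CANNTG, the E-box to which myogenin and MyoD are known to bind, occurred in a window of 6 of the 6 muscle genes and of 1 of the 4 counterparts, *Eno1*, and in 72.3% of all 32851 windows. CAGCTG, a form of the E-box that is its own reverse complement, occurred for 5 of the 6 muscle genes, all but *Pfkm*, and for 0 of the 4 counterparts, and in 16.3% of all windows. The motif of MEF2, searched by its usual consensus, occurred for *Pgam2* and *Ckb* and in 1.9% of all windows. Both strands were searched, and genes with several windows were counted if any held the motif. The shares of all windows count single windows and are not shares of genes. The CAGCTG of *Eno3* did not lie within the 250 bases before the start. A match of letters is not a binding site, and no binding was measured here.

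The bases before the start are shown for 2 of the 4 pairs, as examples of a muscle gene beside its counterpart, up to the first annotated exon base, with CANNTG and MEF2 matches in capitals. They lie at chr7:19410844-19411024 (plus strand, 181 bases) for *Ckm*, chr12:111672339-111672588 (minus strand) for *Ckb*, chr11:5803797-5804046 (minus strand) for *Pgam2* and chr19:41911621-41911870 (plus strand) for *Pgam1*, each written 5′ to 3′ along the gene.
Ckm: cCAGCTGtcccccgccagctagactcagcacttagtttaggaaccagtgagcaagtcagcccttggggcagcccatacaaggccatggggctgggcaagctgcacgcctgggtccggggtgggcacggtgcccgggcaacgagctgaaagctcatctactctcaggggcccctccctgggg
Ckb: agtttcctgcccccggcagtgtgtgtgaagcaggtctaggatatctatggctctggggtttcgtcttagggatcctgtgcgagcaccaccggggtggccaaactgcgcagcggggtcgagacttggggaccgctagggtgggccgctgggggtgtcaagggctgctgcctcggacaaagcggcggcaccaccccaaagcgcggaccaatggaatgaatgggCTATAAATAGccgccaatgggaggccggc
Pgam2: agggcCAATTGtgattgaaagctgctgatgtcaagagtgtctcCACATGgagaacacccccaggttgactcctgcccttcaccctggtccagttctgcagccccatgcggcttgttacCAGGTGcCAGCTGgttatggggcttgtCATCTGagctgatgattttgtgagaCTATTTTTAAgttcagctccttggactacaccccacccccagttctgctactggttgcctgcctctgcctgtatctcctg
Pgam1: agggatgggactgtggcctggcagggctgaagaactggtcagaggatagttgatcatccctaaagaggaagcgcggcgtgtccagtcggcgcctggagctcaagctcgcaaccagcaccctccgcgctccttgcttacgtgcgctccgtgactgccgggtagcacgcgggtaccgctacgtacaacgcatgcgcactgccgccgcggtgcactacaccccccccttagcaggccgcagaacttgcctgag

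The window of *Pgam2* held 5 CANNTG matches, 1 of them CAGCTG, and 1 MEF2 match. That of *Ckm* held 1 CANNTG match, which was CAGCTG. That of *Pgam1* held neither motif, and that of *Ckb* held no CANNTG and 1 MEF2 match, which overlaps a TATAAA in the same place.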

How the data were processed

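RNA-Seq (poly(A) RNA, paired 150-base reads) of 6 libraries was used, grouped by the sample labels. The authors aligned the reads with HISAT2 2.2.1 to GRCm38, and assigned them to genes with featureCounts. The raw counts and a TPM for each gene were deposited for each library. The annotation release and the strand setting are not given in the sources used here. A gene absent from a library's file was taken as 0. Of the 23231 gene IDs, 23155 matched a symbol in GENCODE.

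The counts were tested with edgeR 4.0.16 (TMM, filterByExpr with a minimum count of 10 and a minimum total of 15, quasi-likelihood test, group alone in the model), fitted and Benjamini-Hochberg adjusted over all 14378 genes. The F statistic of each gene gave its SE and 95% interval. The code was tested on simulated data, in which no library stood apart as dCas9-KRAB-En5 replicate 3 does, so that feature was not covered. Alternatives were DESeq2 1.42.0, limma 3.58.1 (log2 of TPM with 1 or 0.1 added), other normalizations and filters, a cutoff of 0.05, the replicate block and leaving out each library. Pairs were compared by log2 ratio with exact permutation tests. Libraries with the same number shared deviations from the mean of their group (r = 0.325, 0.331 and 0.418 across genes, against -0.491 to -0.0807 for other numbers). The replicate number, taken from the labels, was therefore used as a block in an alternative. Deviations from a group mean cancel within the group, so the negative r of other numbers are in part built in. The labels do not say whether same-numbered libraries share a culture, so the pairing is an assumption. A floor of 3 counts corresponded to 0.0405 to 0.0942 CPM.

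The members, lists and tests were chosen with earlier results of these data known. Named were the members, *Myog*, copies of members, the called genes of each pathway list (up to 6 per direction), a set of enzymes picked by role, the 3 genes most like each mean and the leading markers. Further markers, and pathway genes given for an alternative only, were named after their values were seen. Sequences came from RefSeq (GRCm38.p6), GENCODE and the study's sgRNA list.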

Additional observations from a re-analysis of the deposited data

How the results depend on the processing

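*Ckm*, *Pygm* and *Mb* kept their direction and their call in all 15 alternatives that could test them. The filter of at least 10 counts in every library removed all of them, leaving 2 members called lower. *Eno3* kept its call in all of 16 alternatives but 1 and *Pgam2* in all but 3. Beside those lost by leaving out a library, *Pgam2* missed the cutoff with total counts only (log2 fold change -3.74, adjusted p = 0.012, edgeR). When each library was left out in turn, 3 to 5 members were called lower, with the lowest count without dCas9-KRAB replicate 1, and the cause was not tested.

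*Ckb*, *Pgam1* and *Pfkm* gained no call and kept their direction in all 16. *Eno1* turned to higher with limma on log2(TPM + 1) and log2(TPM + 0.1) (0.132 in both) and ranged from -0.498 to 0.0588 when each library was left out. *Pygb* turned to lower with at least 10 counts in every library (-0.0125) and ranged from -0.188 to 0.233 when each library was left out. Neither was called in any of these.

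The replicate block changed no call of a member. The paired test of same-numbered libraries left the pair differences at -7.95, -3.94, -5.11 and -6.15, with p = 0.25 (exact sign-flip permutation test), the smallest that 3 pairs allow. Across pseudocounts, counts in place of TPM, added copies and left-out libraries the differences ranged from -9.38 to -5.21 for *Ckm* and *Ckb*, -4.27 to -3.47 for *Eno3* and *Eno1*, -5.39 to -4.59 for *Pgam2* and *Pgam1* and -8.46 to -3.16 for *Pygm* and *Pygb*.

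Counts of called pathway genes moved most. DESeq2 called 0 lower and 1 higher in the creatine and adenylate list, 1 lower and 2 higher in glycolysis, 2 lower and 3 higher in glycogen and 2 lower and 2 higher in transport and globins. The replicate block called 0 and 1, 1 and 2, 1 and 0, and 1 and 1. With total counts only 1 glycolysis gene was called higher. With each library left out, calls ranged from 0 to 2 lower and 0 to 1 higher in creatine and adenylate, 0 to 1 lower and 0 to 6 higher in glycolysis, 0 to 1 lower and 0 to 3 higher in glycogen and 0 to 1 lower and 0 to 2 higher in transport and globins. Depth limits *Pygm*, *Ckm* and *Mb* in dCas9-KRAB-En5 cells to bounds or wide intervals.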
